A study of Mus musculus with 2 samples.

Results

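Sox7, Sox17 and Sox18, the 3 genes of the SoxF group of transcription factors, were followed probeset by probeset in mouse CD41-positive cells cultured with and without an LSD1 inhibitor. Their members are all probesets of the deposited table that the array's annotation names with 1 of these genes alone, 25 probesets of 1048575: 5 of Sox7, 15 of Sox17 and 5 of Sox18. The source was Bry-GFP, a mouse embryonic stem cell line with GFP placed under Brachyury, a gene of mesoderm. Embryoid bodies were made from it, and FLK1-positive mesoderm was taken from them on day 3. The control culture received the solvent DMSO, and the other received 300 nM of compound B, which is the code name of an inhibitor of LSD1. On day 2 of culture the CD41-positive cells of each were sorted, and total RNA from them was measured on Affymetrix arrays. Both arrays therefore share the cell line, the FLK1 selection and the CD41 sort. There was 1 array per condition, so no difference between conditions could be tested, and precision is limited by this number of arrays.

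SoxF proteins bind DNA through an HMG box and act in endothelium and its precursors. Sox7 is found in hemogenic endothelium, from which blood cells bud, and is switched off as they form. Sox17 acts in arterial and hemogenic endothelium and also in endoderm, and Sox18 acts in early blood vessels and in the first steps of lymphatic vessel formation. LSD1, encoded by Kdm1a, removes methyl groups from histone H3 and is recruited by the repressors Gfi1 and Gfi1b, which turn endothelial genes down during blood formation. The comparison asks how RNA levels in the sorted cells differ under LSD1 inhibition.

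The 3 SoxF genes had differences of unequal size between the arrays, all above 0, except that Sox17 was at -0.011 under the strictest filter on dim probesets. Sox7 was 14.3-fold higher in the inhibitor array, Sox18 was 2.38-fold higher, and Sox17 differed by 0.58 in log2 with probesets on both sides of 0. The values are log2 intensities as deposited. A probeset is called bright if its higher value reached 3.17, the median of the whole table, and a gene counts as measured with at least 4 bright probesets. A probeset that reached it in 1 array alone is higher in that array by this rule. The gene difference is the median over its bright probesets of inhibitor minus DMSO. The size rule asked for a 2-fold gene difference, or 1 on the log2 scale, shared in direction by 75% or more of the bright probesets. Sox7 and Sox18 passed it, and Sox17 did not. Of 15087 measured genes, 1.72% passed it upward and 0.563% downward. Single probesets are noisier: 8.69% of bright ones with 1 gene were higher by at least 1, as were 4 of 5 of Sox7, 3 of 5 of Sox18 and 1 of the 8 bright ones of Sox17.

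**Figure D1:**
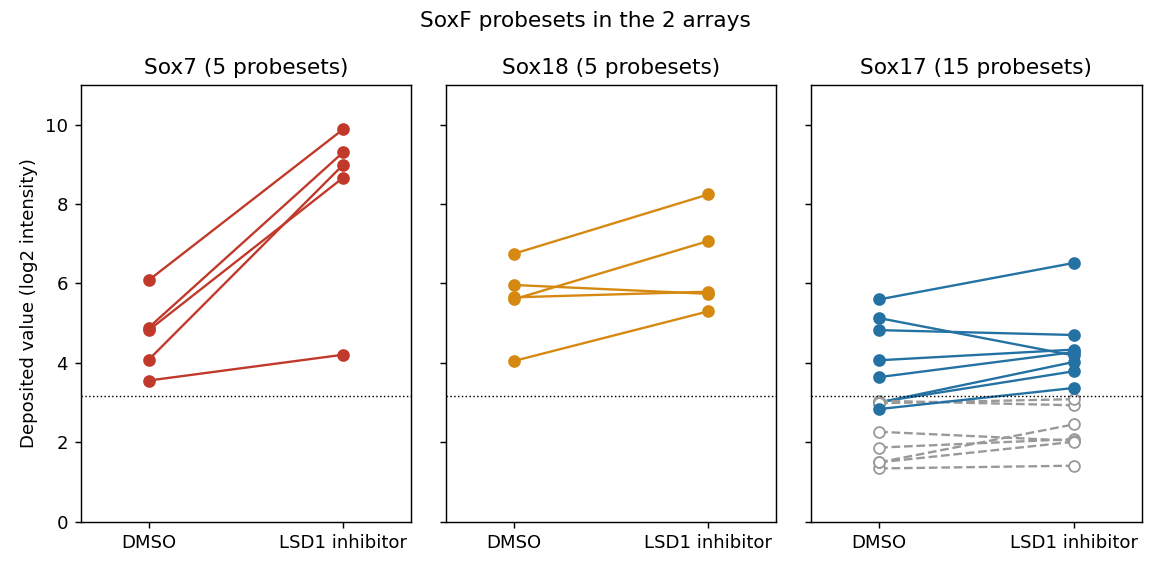
Deposited log2 intensity of each SoxF probeset (vertical axis) in the DMSO and the LSD1 inhibitor array (horizontal axis), 1 line per probeset; filled points are bright probesets, open grey points are dim ones, and the dotted line is the table median of 3.17. The 4 steep lines of Sox7 end between 8.66 and 9.88, 3 of the 5 Sox18 lines run up by more than 1, and 7 of the 15 Sox17 lines lie under the dotted line.

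Sox7 separated the 2 arrays in 4 of its 5 probesets. Probeset 4610166 had a value of 4.08 in the DMSO array and 8.99 in the inhibitor array, a difference of 4.91. Probeset 4930405 went from 4.89 in DMSO to 9.30 with the inhibitor, a difference of 4.41. These 2 had the largest differences of the gene. Probeset 4526788 was at 4.82 and 8.66, a difference of 3.84. Probeset 4933073 was at 6.08 and 9.88, a difference of 3.80. Such sizes were rare in the arrays: of 208583 bright probesets with 1 gene, 5 had a difference at least as large as the first of these probesets and 96 at least as large as the last. The fifth, 5305568, stood apart from the others, with 3.55 in DMSO, 4.20 with the inhibitor and a difference of 0.65. All 5 Sox7 probesets were bright in both arrays, so none of its differences starts from a value below the table median.

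The gene difference of Sox7 was 3.84 (SD 1.67 over 5 probesets), with all 5 higher in the inhibitor array. It had the highest difference of the 15087 measured genes. Among the 1208 measured genes that also had 5 bright probesets, the central 90% of differences lay between -0.68 and 0.79, and 2.4% passed the size rule upward. The SD describes how far the probesets of 1 gene lie from each other within the pair of arrays and is no error between samples. That of Sox7 was among the widest, at or above those of 99.6% of measured genes.

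The Sox18 probesets split into 3 with like differences above 1 and a pair near 0. Probeset 4722916 was at 6.75 in DMSO and 8.24 with the inhibitor, a difference of 1.49. Probeset 4513441 was at 5.60 and 7.07, a difference of 1.47, and 4888759 was at 4.05 and 5.30, a difference of 1.25. These 3 lie close together in their differences although their levels do not. Probeset 4912801 was at 5.65 and 5.79, a difference of 0.14. Probeset 4664814 was at 5.96 and 5.74, a difference of -0.22, and was the single Sox18 probeset that was lower with the inhibitor. The gene difference was 1.25 (SD 0.81, 4 of 5 probesets higher), and it stood at place 143 from the top of all measured genes. It is the difference of the third-largest probeset, so the gene sits on the edge between both groups of probesets. Without the probeset of largest difference the value was 0.70, and as a mean over probesets it was 0.83, both short of the size rule. Taken as the gap between the median levels, 5.65 in DMSO and 5.79 with the inhibitor, Sox18 would hardly differ, because the median of each array falls on the pair near 0.

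Sox17 probesets were often dim and differed in sign. Of its 15 probesets, 8 were bright and 7 were dim, and 10 lay below the table median in the DMSO array. Over all 15 probesets the DMSO values ran from 1.34 over a median of 3.00 to 5.60, and the inhibitor values from 1.41 over a median of 3.37 to 6.52. The values of the 2 arrays overlap over nearly their whole range. Probeset 4900669 had the largest difference, 1.02, from 3.00 in DMSO to 4.02 with the inhibitor. Probeset 4754304 was at 5.60 and 6.52, a difference of 0.92. Probeset 5376984 had the opposite sign, at 5.13 and 4.19, a difference of -0.94. The remaining bright probesets had differences of 0.77, 0.63, 0.53, 0.27 and -0.12. Thus 6 of the 8 bright probesets were higher with the inhibitor, and 5 of the 7 dim ones were, with dim differences between -0.23 and 0.95. Among the bright ones, 4900669 and those with differences of 0.77 and 0.53 reached the table median in the inhibitor array alone. Their sign was fixed by the filter, so the count of 6 and the gene difference lean upward through it. The gene difference was 0.58 (SD 0.65 over 8 probesets), and 93.1% of measured genes had a lower one. Over all 15 probesets the median difference was 0.27. With the 2 probesets that reach the table's 75th percentile alone, the value turned to -0.011, so no direction is given for Sox17.

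**Figure D2:**
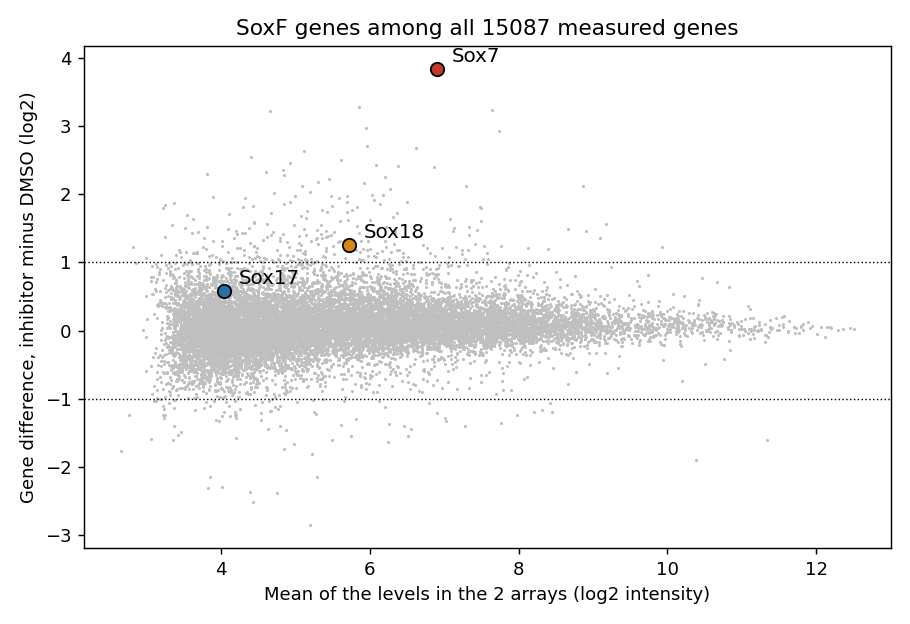
Gene difference, inhibitor minus DMSO in log2 (vertical axis), against the mean of the gene's levels in the 2 arrays in log2 intensity (horizontal axis), 1 grey point per measured gene, with the 3 SoxF genes coloured; the dotted lines mark 2-fold. Sox7 lies highest of the 15087 measured genes at 3.84, Sox18 lies above the upper line at 1.25, and Sox17 lies at 0.58 inside the upper edge of the cloud.

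The 3 genes also differed from each other in how their probesets overlapped. The gap between the gene differences of Sox7 and Sox18 was 2.59, and 4 of 5 Sox7 probesets had a difference above every Sox18 probeset. The same 4 lay above every bright Sox17 probeset. Between Sox18 and Sox17 the gap was 0.67, and 3 of 5 Sox18 probesets lay above all 8 bright Sox17 probesets. Counted from the other side, 1 of these 8 lay below every Sox18 probeset. Below every Sox7 probeset lay 2 of 5 Sox18 and 5 of the 8 bright Sox17 probesets. The sign of some of the 8 was fixed by the filter, as given above. Probesets of 1 gene share the same RNA and array, so these counts describe the arrays and are no test. Levels of different genes are not set against each other, since probesets differ in brightness at equal RNA.

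By difference, the genes nearest to Sox7 were far from it. Gpm6a, a membrane glycoprotein, was nearest with a gap of 0.55, followed by the helix-loop-helix inhibitor Id3 (gap 0.60), the GTPase gene Gimap4 (0.62), the Ras activator Rasgrp3 (0.86) and the adrenomedullin receptor part Ramp2 (0.92). The DMSO level of Gimap4 was 3.01, below the table median. Part of its bright probesets thus reached that median in the inhibitor array alone, and their sign was fixed by the filter. Around Sox18 the genes lay densely: Ldb2 differed by 1.25, and Mecom, a transcription factor of blood stem cells, Rhoj, a small GTPase of endothelium, and Edn1, which encodes endothelin, differed by 1.24 each, and the ETS factor Erg by 1.26. The 5 genes nearest to Sox17, Gpr173, Aldh3a2, Ppp1r36, Dok3 and Ankrd40, each lay within 0.0005 of it. Likeness here is the gap between 2 differences over a single pair of arrays, so a small gap is common where genes are dense.

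The measured genes beside the SoxF genes in the genome did not pass the size rule. Most measured genes did not, with 1.72% passing upward and 0.563% downward. Pinx1, which encodes a telomerase inhibitor and is the next gene on one side of Sox7, differed by 0.52 (SD 0.66, 10 of 13 probesets higher), and 4930578I06Rik on its other side by 0.48 (4 of 6 higher). Tcea2, an elongation factor gene next to Sox18, differed by -0.53 (6 of 11 lower), and Prpf6, the nearest measured coding gene on its other side, by -0.02. Gm25879 and Gm29797 lie nearer on that side and had 0 probesets. For Sox17, the pseudogene Gm7357 on one side differed by -0.03 and Mrpl15, the nearest coding gene beyond it, by 0.08, whereas Rp1 on the other side had 5 probesets and was not measured. The order of genes is that of the mouse assembly GRCm38.p6, in which no other gene overlaps any of the 3.

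Of 17 other Sox genes, 15 were measured and 0 passed the size rule, which is near the share of all measured genes (1.72% higher and 0.563% lower). Differences were above 0 in 7 and below 0 in 8. Their median difference was -0.04, against 0.06 for all measured genes, and it turned to 0.02 when dim probesets were kept. Of the 15 measured, Sox6, a SoxD factor that also acts in red cells, had the largest difference. Its levels were 5.23 in DMSO and 4.78 with the inhibitor, a difference of -0.62 (24 of 31 probesets lower). Sox21, a SoxB factor best known from the nervous system, followed with 0.59 (5 of 8 higher). The largest difference upward among the measured genes of the family outside SoxF was thus of the size of that of Sox17. Sry and Sox2 had too few bright probesets to be measured, with median differences of 0.85 over 2 and 0.32 over 3.

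Among genes reported as SoxF targets or as arterial genes acting with them, 4 of 10 measured members were higher past the size rule and none was lower, against 1.72% and 0.563% of all measured genes. The median difference was 0.51, and it was 0.15 when dim probesets were kept. This list, like the other gene lists here, was chosen with earlier results of these data known, so its contrast with all measured genes is no test. Cdh5, which encodes the junction protein VE-cadherin, was at 7.89 in DMSO and 9.84 with the inhibitor and differed by 2.11 (SD 0.82, 12 of 13 probesets higher). Egfl7, a secreted vessel protein gene, differed by 1.63 (10 of 11 higher). The receptor gene Notch1 differed by 1.38 (33 of 36 higher). Efnb2, the arterial ephrin gene, lay at the limit with 1.003 (12 of 12 higher), and was below it after quantile normalization, with a level-dependent trend removed, with even-ranked probesets alone and without its probeset of largest difference. Prox1, the lymphatic factor that Sox18 activates, differed by 0.85 with 8 of 8 probesets higher, and the Notch target Hey1 by -0.31, and neither passed. Cldn5, Mmp7 and Gja4 had fewer than 4 bright probesets and were not measured.

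RefSeq promoter windows, from 250 bases before to 50 bases after a gene's start, were at hand for 10 of the 13 listed targets, 14 windows in all. They were searched on both strands for ACAAT, the core that Sox proteins bind (ATTGT on the other strand). It was in 4 of the 14 windows (28.6%) and in 31.0% of the 32851 windows of all genes, so its share among the targets was near that of promoters in general. Among the targets past the size rule, no window of Egfl7, Notch1 or Efnb2 held it, and Cdh5 had no window. The windows of Mmp7 that held it overlap and share a site. The windows of Gja4 and Robo4 are shown because both hold the core while their genes had unlike differences. The 3 bright probesets of the gap junction gene Gja4, too few for it to count as measured, had a median difference of 1.62. The guidance receptor gene Robo4 differed by -0.10 over 18. Both windows are given 5′ to 3′ on the gene's strand with the core in capitals. The Gja4 window, at chr4:127313990-127314289 on the minus strand of GRCm38.p6, holds it 86 bases before the start. The Robo4 window, at chr9:37401722-37402021 on the plus strand, holds it on opposite strands 225 and 214 bases before the start.
Gja4: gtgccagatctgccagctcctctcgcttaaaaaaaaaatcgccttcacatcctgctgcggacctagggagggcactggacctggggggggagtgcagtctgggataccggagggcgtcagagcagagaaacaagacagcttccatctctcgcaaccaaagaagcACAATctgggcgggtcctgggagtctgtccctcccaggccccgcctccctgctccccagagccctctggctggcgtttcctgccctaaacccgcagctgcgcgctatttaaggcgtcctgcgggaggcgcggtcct
Robo4: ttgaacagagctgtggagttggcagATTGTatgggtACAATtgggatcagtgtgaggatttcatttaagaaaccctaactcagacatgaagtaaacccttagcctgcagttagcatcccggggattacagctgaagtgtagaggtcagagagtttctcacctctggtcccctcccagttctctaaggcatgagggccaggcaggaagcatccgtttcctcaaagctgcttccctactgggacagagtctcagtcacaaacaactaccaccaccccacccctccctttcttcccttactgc

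Factors that act with SoxF proteins or upstream of them were also unevenly placed. Of 12 measured members, 3 were higher past the size rule and 1 was lower, against 1.72% and 0.563% of all measured genes. Their median difference was 0.59, against 0.06 for all measured genes. Ets1, an ETS factor of endothelium, differed by 1.47 (14 of 15 probesets higher). Gata2, a factor of blood stem cells and endothelium, differed by 1.41 (7 of 7 higher), and Erg by 1.26 (11 of 12 higher, and 0.88 with even-ranked probesets alone). Mef2c, a MADS-box factor that binds Sox18, was the lower one, at 7.13 in DMSO and 5.38 with the inhibitor, a difference of -1.37 in 29 of 29 probesets. Kdr, which encodes FLK1, differed by 0.79, Vegfa, its ligand gene, by 0.70, and Runx1, whose protein binds Sox7, by 0.11, and none of these 3 passed. Gfi1 and Gfi1b differed by 2.43 and 1.56 and Kdm1a by 0.14, whose RNA does not check the inhibitor because that acts on the protein.

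**Figure D3:**
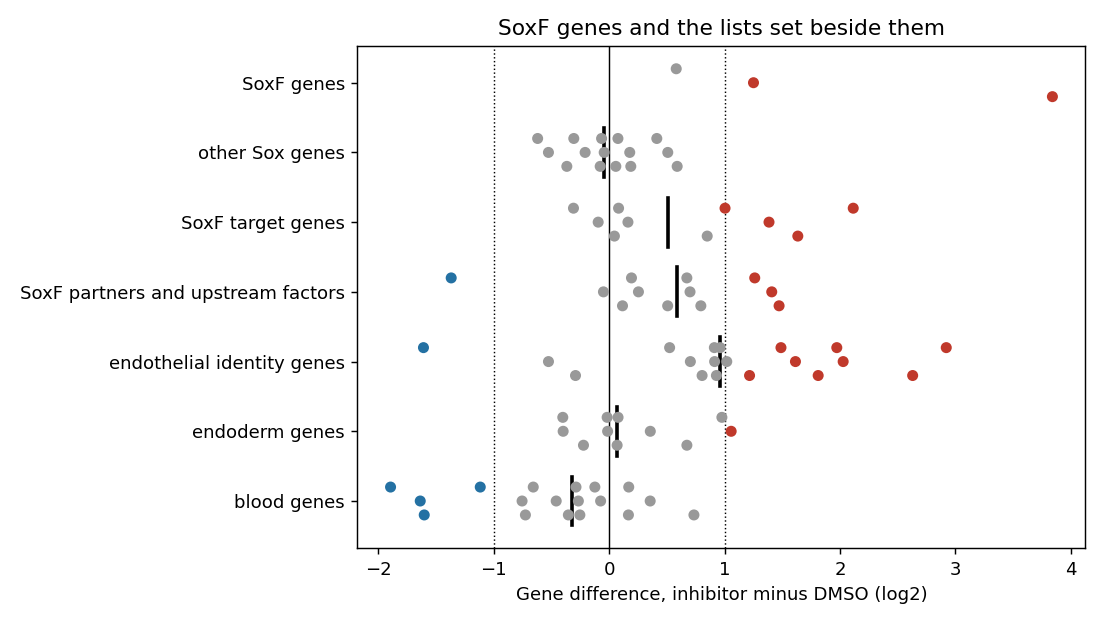
Gene difference, inhibitor minus DMSO in log2 (horizontal axis), of each measured gene of the SoxF group and of the 6 lists set beside it (vertical axis); red points were higher and blue points lower past the size rule, grey points were neither, black bars are list medians and dotted lines mark 2-fold. Sox7 lies to the right of every listed gene, the 15 other Sox genes lie between -0.62 and 0.59, and the blood genes reach to -1.89.

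Markers of the cell types that the sort could hold were set beside the SoxF genes. All 7 endothelial markers (Cdh5, Pecam1, Tek, Tie1, Kdr, Emcn and Esam) were measured and had differences from 0.79 to 2.11, of which those of Cdh5 and Esam passed the size rule and the other 5 did not. Their levels ran from 3.62 to 7.89 in DMSO and from 4.45 to 9.84 with the inhibitor, and their summed log2 level was 41.6 and 50.1. The longer endothelial list given next also has 3 members below 0. All 6 early blood markers, among them Itga2b, the gene of the sort marker CD41 (difference -0.12), were measured as well, with a summed level of 38.5 and 37.6. Their differences ran from -0.66 to 0.35, with 2 above 0 and none past the size rule. All 7 erythroid markers had a difference below 0, from -1.89 to -0.07, and 4 of them passed the size rule. Their summed level was 63.0 in DMSO and 54.6 with the inhibitor. Of all measured genes, 1.72% passed the size rule upward and 0.563% downward, so the early blood count is near these shares. Levels are medians over bright probesets, so a level above the table median is nearly fixed by that filter and says nothing about which cells were present. A summed level adds log2 values of different genes and is no amount of RNA or of cells. Of 8 endoderm markers, which bear on Sox17, 4 were measured (Foxa1, Foxa2, Hnf4a and Afp), with differences from -0.22 to 0.08. The part that a shift in these cell types had in the SoxF differences was not tested, and more cells of a type and more RNA per cell cannot be told apart in sorted bulk RNA.

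In a longer list of endothelial identity genes, 8 of 19 measured members passed the size rule upward, 1 passed it downward and 10 did not pass, against 1.72% higher and 0.563% lower of all measured genes. The median difference was 0.96, with 16 members above 0 and 3 below. The higher ones were Ramp2 (2.92), the receptor phosphatase gene Ptprb (2.63), the adhesion receptor gene Adgrl4 (2.03), the junction gene Esam (1.97), Cd93 (1.81), Plvap, which forms the diaphragms of capillary pores (1.61), Ecscr (1.49) and the VEGF receptor gene Flt1 (1.22). The lower one was the hyaluronan receptor gene Lyve1 at -1.61, which was at -0.62 with values below the table median raised to it. The others below 0, named after their values were seen, were Cd34, a surface protein gene of endothelium and blood progenitors, at -0.53 (10 of 12 probesets lower), and Vwf, which encodes von Willebrand factor, at -0.29 (30 of 48 lower). Emcn, which encodes endomucin, differed by 1.02 without the share of probesets required, and Pecam1, which encodes CD31, by 0.96 with 18 of 18 probesets higher. In the endoderm list, 1 of 11 measured members was higher and 0 were lower, against 1.72% and 0.563% of all measured genes. It was the GATA factor gene Gata4 at 1.06 (0.58 with even-ranked probesets alone), which heart mesoderm also uses. Hhex, a homeobox gene that endothelium also expresses, differed by 0.98 and Gata6 by 0.67, and the list median was 0.07. In the blood list, 4 of 18 measured members were lower and 0 were higher, against 0.563% and 1.72% of all measured genes, and the median was -0.32. The lower ones were the embryonic globin genes Hbb-y (-1.89) and Hba-x (-1.60), the erythropoietin receptor gene Epor (-1.64) and the erythroid factor gene Klf1 (-1.12, and -0.83 without its probeset of largest difference). Near-identical globin genes could share probes, so the globin values are uncertain. Ikzf1, a lymphoid and blood progenitor factor gene, differed by -0.76 and Laptm5, a lysosomal protein gene of blood cells, by 0.73.

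**Figure D4:**
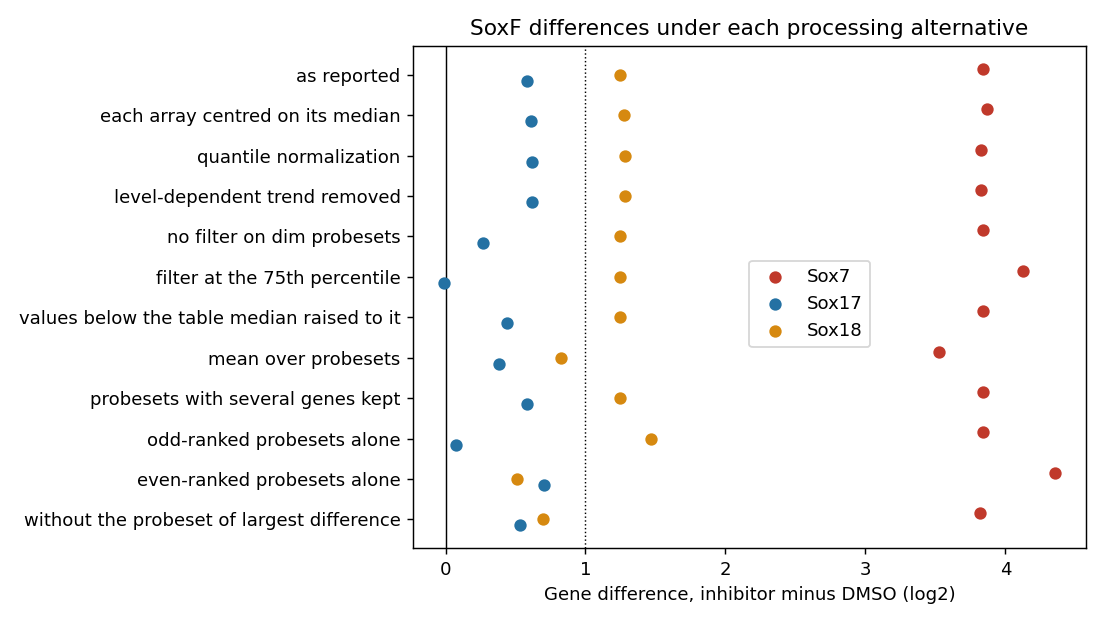
Gene difference, inhibitor minus DMSO in log2 (horizontal axis), of Sox7, Sox17 and Sox18 as reported and under 11 processing alternatives (vertical axis); the dotted line marks 2-fold. Sox7 stays between 3.52 and 4.35, Sox18 runs from 0.51 to 1.47 across the 2-fold line, and Sox17 runs from -0.011 to 0.70.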

How the data were processed

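Total RNA of CD41-sorted cells was measured on 2 Affymetrix arrays, 1 per condition, after labelling of amplified material with biotin, per the labels' protocols. Values were deposited per probeset and are read here as log2 intensity, since they run from 0.157 to 13.5. For summarisation, normalization and genome build, the authors' steps are not stated in the labels. Ranked from low to high, the arrays never lie further apart than 0.085. The table is as long as a spreadsheet allows, and any further probesets were not analysed here.

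A platform annotation gives a single gene symbol to 270105 probesets, and the 5737 carrying more than 1 were left out. Older symbols were updated through RefSeq's GRCm38.p6 gene table. Deposited log2 values were used without further scaling, and the rules for bright probesets, measured genes and size are given with the results. Computation used Python 3.11.15, pandas 2.3.3, numpy 2.4.6 and statsmodels 0.14.6. The gene summary was tested on simulated data, with changes well past 2-fold in genes whose levels lay well above the table median. That test covers neither dim genes such as Sox17 nor differences near the limit such as that of Sox18. With 1 array per condition no p-values are given.

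Alternatives were another scaling (each array centred, quantile normalization, or a lowess trend with a span of 0.2 removed), no filter on dim probesets or one at the 75th percentile, a floor at the table median, the mean over probesets, probesets with several genes kept, odd-ranked or even-ranked probesets alone, and each gene without its probeset of largest difference. For counts over all genes, at least 1 or 8 bright probesets and a 1.5-fold threshold were also tried. The members and the 6 gene lists were chosen with earlier results of these data known. Genes named beside the members were the 5 nearest in difference, leaving out clones and predicted genes, the neighbours in the genome, the list members past the size rule with the 2 largest others, and 8 preset genes around LSD1 and blood emergence. Robo4, Gja4, Cd34 and Vwf were named after their values were seen. No promoter or protein sequence of the 3 SoxF genes was used here.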

Additional observations from a re-analysis of the deposited data

How the results depend on the processing

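Sox7 kept its direction and passed 2-fold in all 11 alternatives, between 3.52 and 4.35. No filter on dim probesets, the floor and probesets with several genes kept left its 5 probesets unchanged, at 3.84. Odd-ranked and even-ranked probesets alone left 3 and 2 of them, fewer than a measured gene needs. Sox18 passed in 8 of 11 and fell short at 0.83 as a mean over probesets, at 0.51 with its 2 even-ranked probesets alone and at 0.70 without its probeset of largest difference. Some of its passes say little. No filter on dim probesets, the filter at the 75th percentile, the floor and probesets with several genes kept left its 5 probesets unchanged, at 1.25. Its odd-ranked probesets alone, at 1.47, were 3, fewer than a measured gene needs. The scalings gave 1.28 each. Ranked from low to high, the arrays lie within 0.085 of each other. Centring and quantile normalization could therefore hardly move Sox18 or Sox7. Sox17 stayed short of 2-fold in all 11 and was at -0.011 with the filter at the 75th percentile, which left 2 probesets. The 259 higher genes became 641 with at least 1 bright probeset, 155 with at least 8 and 882 at 1.5-fold. The 85 lower genes became 439, 44 and 402 under these, 51 with values below the table median raised to it and 49 without each gene's probeset of largest difference. The endoderm list had 2 genes past the size rule in place of 1 with each array centred. Of 22 list genes past the rule, 17 passed it in every alternative that measured them, and Efnb2, Erg, Gata4, Klf1 and Lyve1 did not. Depth cannot be given for arrays, and dim values limit what Sox17 can show.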
